A study of Penicillium oxalicum with 10 samples.

Results

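Messenger RNA of Penicillium oxalicum, a filamentous fungus that lives on plant matter and secretes enzymes that digest it, was sequenced from a strain labelled flbC deletion (DflbC) and from the wild type M12. These are 2 of the 10 libraries of a digital gene expression experiment, in which each gene's transcripts are counted as short sequence reads. The other 8 libraries come from strains labelled as deletions of flbA, flbB, flbD, flbE, wetA, abaA, stuA and swi6 and serve here as a background. All strains were grown in the same way, for 20 h from conidia at 30 °C in modified Czapek medium with 2% glucose and then for 48 h after a transfer of the mycelia to fresh medium. The comparison covers the 9134 genes, of 9859 listed, whose RPKM averaged 1 or more over the 10 libraries. RPKM is the number of reads per kilobase of a gene's coding length, scaled by the read total of the library.

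Conidia are the asexual spores that moulds form on aerial stalks called conidiophores. In Aspergillus nidulans FlbC is a zinc finger protein that acts early in this programme, upstream of BrlA, the regulator that switches on conidiophore formation. BrlA acts before AbaA and WetA, which take the conidium through its later stages. Moulds also make their conidial pigment, new wall polymers and many secondary metabolites around the time of sporulation.

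Each genotype is represented by 1 library from 1 strain, so no value below has a replicate and no test across cultures could be made. A difference is log2(RPKM + 1) in the flbC deletion minus the same in wild type, and a gene is called higher or lower where it is at least 2-fold apart on that scale. Folds of single genes are ratios of RPKM. Their 95% intervals come from the 2 read counts alone and cover counting error, not the spread between cultures. The RNA came from whole mycelia, so fewer cells of a kind and less RNA per cell cannot be told apart.

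The flbC deletion library held 4.44 megareads on genes and the wild type library 5.15 megareads, and 1 read on a gene of 1 kilobase was worth 0.225 RPKM in the flbC deletion and 0.194 RPKM in wild type. The annotation names no gene flbC, so the deleted gene could not be looked up by name. Of 5714 genes with at least 30 reads in each other library, 0 had at most 2 reads in the flbC deletion library, and 0 had a covered length under 50% of the lowest found elsewhere. Genes with fewer than 30 reads in any other library were outside this check, so a weakly read flbC gene would have been missed. The deletion is therefore taken from the label. PDE_06605, an unnamed gene, took 9.72% of all reads in the flbC deletion and 7.73% in wild type (95% Wilson intervals 9.69 to 9.75% and 7.71 to 7.76%). Its neighbour PDE_06607 took 1.51% of reads in the flbC deletion and 0.812% in wild type. The other genes among the 5 with the most reads in the flbC deletion were PDE_01080 (formate dehydrogenase), the unnamed PDE_09377 at 6547 RPKM against 3675 in wild type, and PDE_02596 (elongation factor 1-alpha) at 3789 RPKM against 3092 in wild type.

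In the flbC deletion 1337 genes were at least 2-fold higher than in wild type, 14.6% of the 9134 genes, and 808 were at least 2-fold lower, 8.85%. Together they make 23.5% of all genes. At least 4-fold higher were 433 genes (4.74%) and at least 4-fold lower 277 (3.03%). The counting interval of the fold lay wholly beyond 2-fold for 858 higher (9.39%) and 508 lower genes (5.56%). The median difference over all genes was 0.12. When the libraries were instead scaled by the median of ratios, which moves that median to 0.02, 1154 genes (12.6%) were higher and 904 (9.90%) lower. The share of called genes that were higher was 62.3% in the first scaling and 56.1% in the second. An informative name was available for 422 of the 1337 higher and 187 of the 808 lower genes, against 3443 of all 9134. Named genes were thus rarer among the called genes, most of all among the lower ones. The gene groups below therefore describe less than all of the response.

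**Figure D1:**
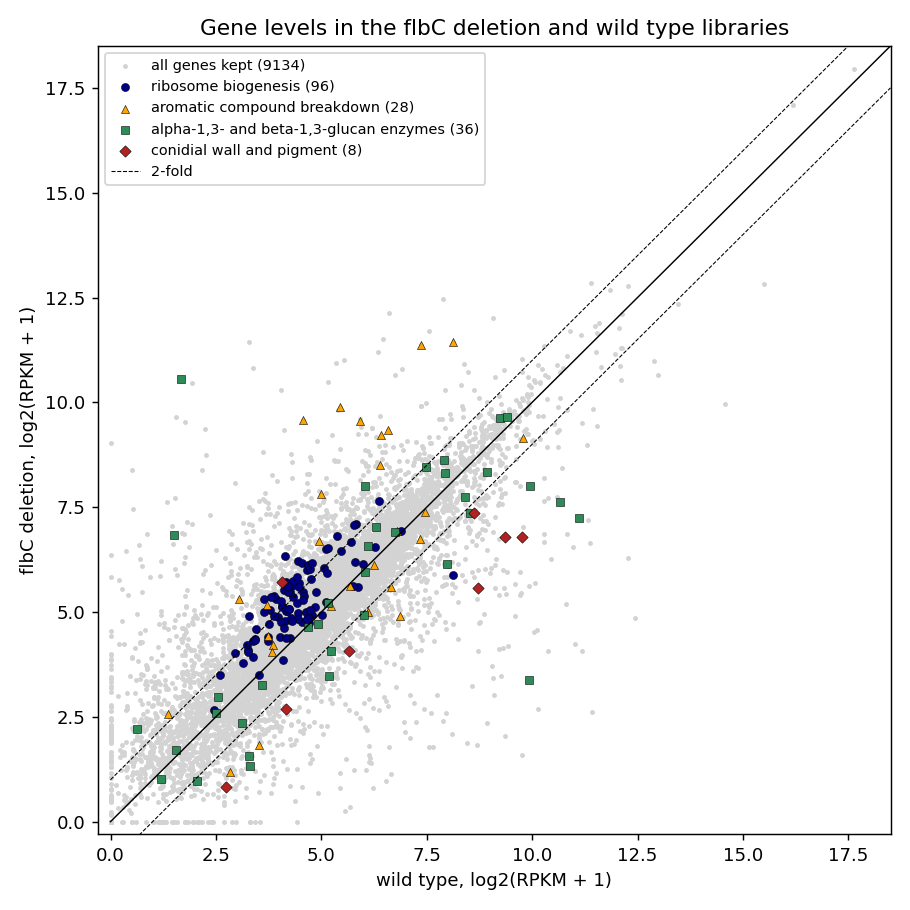
Level of each of 9134 genes in the flbC deletion (vertical axis) against wild type (horizontal axis), as log2(RPKM + 1), with 4 gene groups marked and the number of genes in brackets. Genes above the upper dashed line were at least 2-fold higher in the flbC deletion (1337 genes). Those below the lower dashed line were at least 2-fold lower (808 genes). Most ribosome biogenesis genes lie above the solid line of equal levels. Most genes of the conidial wall and pigment list, all named for pigment enzymes, lie below it.

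Regulators of conidiation were lower in the flbC deletion than in wild type. Of the 5 named regulators 4 passed the filter on low values, and 3 of these were at least 2-fold lower, against 8.85% of all genes. Against the median of the other 8 deletions 0 of the 4 were higher and 1 was lower. Their median difference by that measure was 0.00, against 0.35 over all genes. The zinc finger regulator BrlA (PDE_00087) had 98.8 RPKM in the flbC deletion and 248 RPKM in wild type, a fold of 2.51 (2.28 to 2.76). The gene thus still gave 569 reads in the flbC deletion, which cover 99.4% of its length. In the other deletion libraries it lay between 0.249 and 107 RPKM, with a median of 78.0, and the flbA, stuA and swi6 deletions were the ones near 0. FlbD (PDE_03008), a Myb-like DNA-binding protein of the same upstream programme, had 76.2 RPKM in the flbC deletion against 341 in wild type, 4.48-fold (95% counting interval 3.98 to 5.06). PDE_04095, named SOK2 after a yeast relative of the fungal regulator StuA, had 142 RPKM in the flbC deletion against 377 in wild type, 2.65-fold (95% counting interval 2.49 to 2.83). PDE_02932, named transcriptional enhancer factor, the family of AbaA, had 14.2 and 28.5 RPKM, and its difference of -0.96 was just short of 2-fold in the scaling by read totals and past it under median-of-ratios scaling. A second, short gene with the name BrlA (PDE_00079) had 0 reads in the flbC deletion and 3 in wild type, too few for a fold.

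Genes of the conidial wall and pigment list, all named for pigment enzymes, followed the same direction. Of its 8 genes 7 (87.5%) were at least 2-fold lower and 1 (12.5%) higher, against 8.85% and 14.6% of all genes. The median difference was -1.74. Against the median of the other 8 deletions 4 of the 8 genes were at least 2-fold higher and 1 lower. By that measure their median difference was 0.98, against 0.35 over all genes. Scytalone dehydratase and tetrahydroxynaphthalene reductase work in the pathway from a polyketide to the dark pigment DHN-melanin. Scytalone dehydratase PDE_09236 had 110.2 RPKM in the flbC deletion against 865 in wild type, 7.85-fold (95% counting interval 6.90 to 8.97). The other gene with that name, PDE_04496, had 46.5 RPKM in the flbC deletion against 417 in wild type, 8.98-fold (95% counting interval 7.35 to 11.1). Tetrahydroxynaphthalene reductase PDE_09239 had 109.7 RPKM in the flbC deletion against 651 in wild type, 5.94-fold (95% counting interval 5.33 to 6.62). The polyketide synthase PDE_09491, which the annotation likens to a naphtho-gamma-pyrone synthase, had 15.7 and 49.2 RPKM, 3.13-fold (95% counting interval 2.82 to 3.48). All 4 of these pigment genes kept clearly measurable levels in the flbC deletion. The tyrosinases, copper enzymes that oxidise phenols to pigment precursors, were mixed. PDE_04260, PDE_04505 and PDE_04614 were lower in the flbC deletion, with 162, 5.46 and 0.784 RPKM against 395, 16.8 and 5.64 RPKM in wild type. PDE_03554 was the only gene of the group that was higher, at 51.6 RPKM in the flbC deletion against 15.7 in wild type.

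The pigment genes PDE_09236 and PDE_09239 lie in a stretch of neighbouring locus numbers whose members did not all differ in 1 direction. From PDE_09229 to PDE_09233 all 5 genes were lower in the flbC deletion (medians 25.7 RPKM in the flbC deletion and 173 RPKM in wild type), and from PDE_09236 to PDE_09244 all 9 were lower (medians 42.3 RPKM in the flbC deletion and 304 RPKM in wild type). The second run holds the polyketide synthase PDE_09237, chosen after its values were seen, with 27.5 RPKM in the flbC deletion against 204 in wild type. Between and beside these runs, other genes were higher. The unnamed PDE_09228, which was chosen after seeing its values, had 2053 RPKM in the flbC deletion against 45.6 in wild type, 45.0-fold (95% counting interval 40.8 to 49.8). PDE_09235, an HSP20-type small heat shock protein, had 1610.2 RPKM in the flbC deletion against 107 in wild type, 15.0-fold (95% counting interval 13.6 to 16.6). PDE_09234, between the runs, had 317 and 401 RPKM and was not called. The remaining deletions had lower levels in this stretch: all 5 genes of the first run and 8 of 9 of the second, all but PDE_09243, were higher in the flbC deletion than in every other deletion library. Scytalone dehydratase PDE_09236 lay between 0 and 21.7 RPKM, with a median of 0 there, and the polyketide synthase PDE_09237 did not exceed 5.92 RPKM. Apart from PDE_09243, the flbC deletion thus had the highest level among the 9 deletions for each gene of these runs, below that of wild type.

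**Figure D2:**
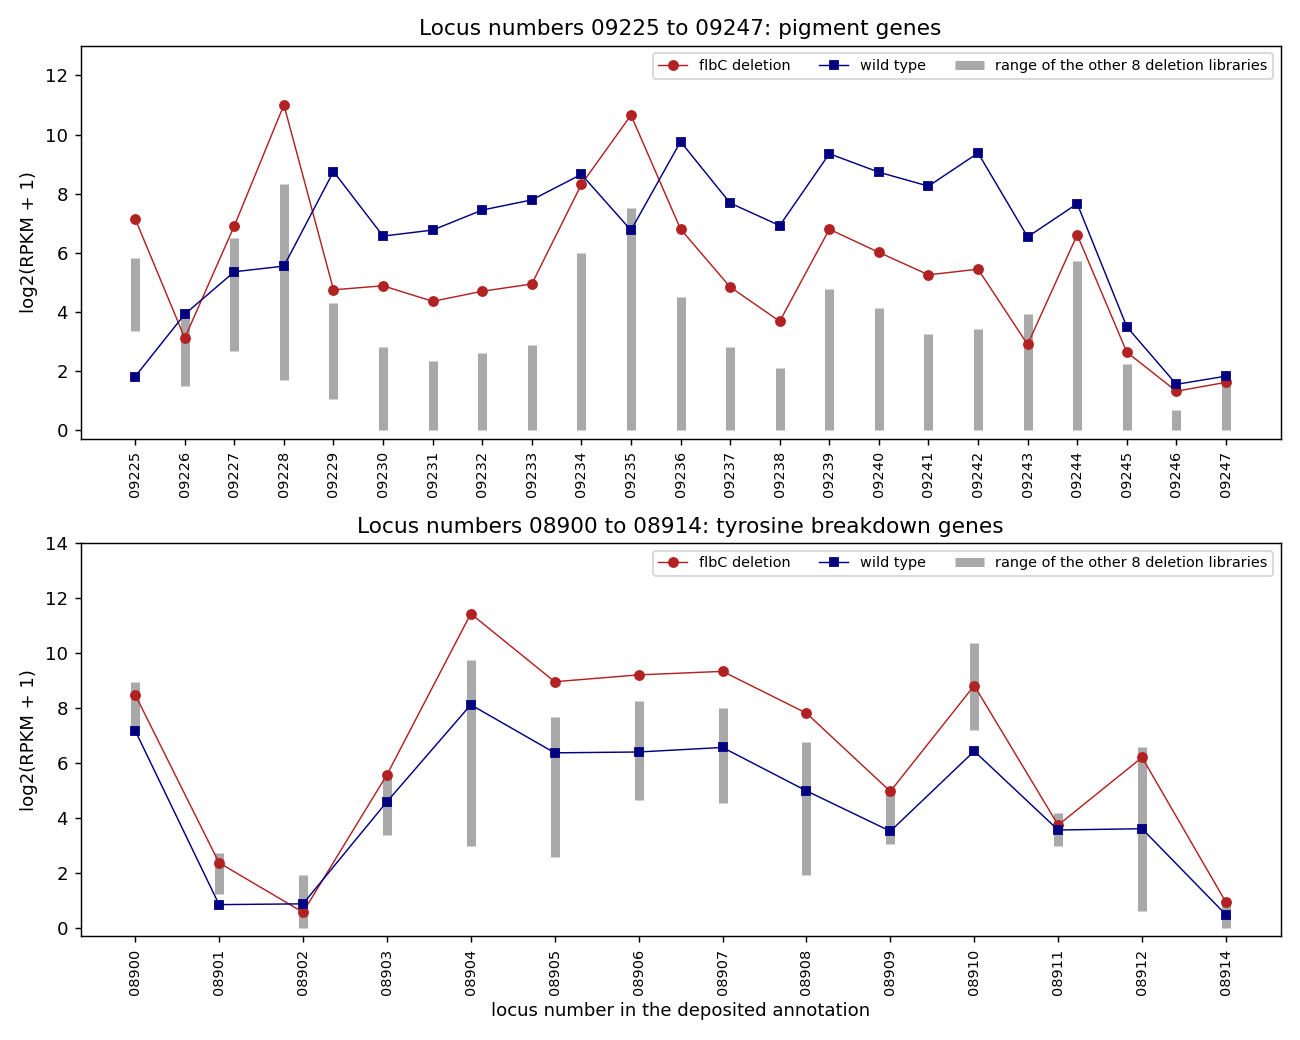
Levels as log2(RPKM + 1) by locus number along 2 stretches of neighbouring genes, in the flbC deletion (red circles), wild type (blue squares) and as the range over the other 8 deletion libraries (grey bars). In the upper panel the runs PDE_09229 to PDE_09233 and PDE_09236 to PDE_09244 are below wild type but mostly above every other deletion, and PDE_09228 and PDE_09235 are above wild type; in the lower panel PDE_08904 to PDE_08908 are above wild type and above all other deletions.

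Cell wall enzymes were among the genes with the largest differences in both directions. The list of alpha-1,3- and beta-1,3-glucan enzymes, which build, cut or rejoin the main glucose polymers of the fungal wall, had 36 kept genes, of which 12 were lower and 4 higher. That is 33.3% lower and 11.1% higher, against 8.85% and 14.6% of all genes. The largest difference of any gene with a name was in this group. PDE_07868, named 1,3-beta-glucan synthase, had 1515 RPKM in the flbC deletion and 2.17 RPKM in wild type, 698-fold (95% counting interval 321 to 1904). In the other deletions it lay between 0.270 and 92.4 RPKM, with a median of 1.78. Its coding length is 537 bases, whereas the glucan synthases known from yeast are very large proteins. PDE_03291, a beta-1,3-glucanase, had 112 RPKM in the flbC deletion against 1.84 in wild type, 60.9-fold (95% counting interval 35.4 to 115). Its neighbour PDE_03292, a protein with a chitin-binding domain, had 424 RPKM in the flbC deletion against 3.81 in wild type, 111-fold (95% counting interval 68.4 to 196). Both neighbours were also higher in the flbC deletion than in any other deletion library, where they reached at most 28.5 and 158 RPKM.

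On the lower side of the same list, the alpha-1,3-glucanase PDE_06621 had 9.33 RPKM in the flbC deletion against 979 in wild type, 105-fold (95% counting interval 84.7 to 132). In the other deletions it did not exceed 8.29 RPKM, so wild type was the library that stood out. A beta-1,3-glucanosyltransglycosylase, PDE_04618, an enzyme that lengthens and branches wall glucan, showed the opposite order across strains. It had 255 RPKM in the flbC deletion, 986 RPKM in wild type and between 787 and 2306 RPKM, with a median of 1606 in the other deletions. The flbC deletion was thus the lowest of all 10 libraries for this gene, by 3.86-fold (95% counting interval 3.66 to 4.08) against wild type. The beta-1,3-glucanase PDE_05515 at 151 RPKM against 2221 in wild type and the exo-beta-1,3-glucanase PDE_08139 at 195 RPKM against 1626 in wild type, chosen after their values were seen, were lower as well. Another transglycosylase, PDE_03452, chosen in the same way, was higher, at 256 RPKM in the flbC deletion against 64.5 in wild type.

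Chitin is the other structural polymer of the wall, and enzymes that break it down act in hyphal lysis, spore separation and feeding. Of 29 genes found by a name search for chitin breakdown 7 were lower in the flbC deletion, 24.1% against 8.85% of all genes. Another 4 were higher, 13.8% and so near the 14.6% of all genes. The chitinase PDE_08122 had 1003 RPKM in the flbC deletion against 24408 in wild type, 24.3-fold (95% counting interval 23.7 to 25.0). The chitinase PDE_01168 had 12.2 RPKM in the flbC deletion against 528 in wild type, 43.3-fold (95% counting interval 33.1 to 57.8). That search also took in PDE_02100, named alpha-N-acetylglucosaminidase, a name that does not mark an enzyme of chitin breakdown. PDE_02100 had 18.7 RPKM in the flbC deletion against 115 in wild type and is counted among the 7 lower genes. Not every chitinase was lower: PDE_09532, chosen after seeing its values, had 228 RPKM in the flbC deletion, 33.7 RPKM in wild type and at most 63.5 RPKM in the other deletions. Of 8 chitin synthases, which make the polymer, 7 were within 2-fold and 1 was lower, PDE_08046 at 15.6 RPKM in the flbC deletion against 45.0 in wild type. The other synthases farthest from the middle were PDE_01856 at 54.8 and 86.3 RPKM and PDE_02083 at 118 and 157 RPKM.

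Against wild type, secreted enzymes that digest plant polymers had more lower than higher genes in each of 4 lists. Of 16 amylolytic enzymes, which break down starch, 5 were lower and 1 higher. Of 30 cellulases 5 were lower and 2 higher, of 55 hemicellulases 8 were lower and 5 higher, and of 23 pectinases 5 were lower and 2 higher. The medians were -0.30, -0.22, -0.38 and -0.16 in this order, against 0.12 over all genes. The share of lower genes was 31.2% for amylolytic enzymes, 16.7% for cellulases, 14.5% for hemicellulases and 21.7% for pectinases, against the background of 8.85%. Against the median of the other 8 deletions the counts ran differently. There 6 cellulases were higher and 3 lower, 14 hemicellulases higher and 3 lower, and 9 pectinases higher and 1 lower. Of the amylolytic enzymes 1 was higher and 1 lower. By that measure 16.5% of all genes were higher and 5.89% lower.

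The amylolytic genes farthest from the median were alpha-glucosidases. PDE_00400 had 29.0 RPKM in the flbC deletion against 768 in wild type, 26.5-fold (95% counting interval 23.8 to 29.6). PDE_02648 had 3.90 against 34.2 RPKM in wild type, and PDE_03966 56.3 against 391 RPKM in wild type. The enzymes that do most of the work on raw starch, chosen after their values were seen, were lower too. Glucoamylase Amy15A (PDE_09417) had 344 RPKM in the flbC deletion against 1681 in wild type, 4.89-fold (95% counting interval 4.70 to 5.08). Alpha-amylase Amy13A (PDE_01201) had 293 RPKM in the flbC deletion against 1237 in wild type, 4.22-fold (95% counting interval 4.04 to 4.41).

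Among the cellulases the lytic monooxygenase Cel61A (PDE_05633) had 0.600 RPKM in the flbC deletion against 12.9 in wild type, and a second monooxygenase, PDE_00698, 15.8 against 34.1 in wild type. An endo-beta-1,4-glucanase, PDE_02886, was higher, at 26.2 RPKM in the flbC deletion against 2.82 in wild type. The hemicellulase list held the same kind of contrast. The endo-beta-1,4-xylanase PDE_00752 had 58.5 RPKM in the flbC deletion, 1.96 RPKM in wild type and at most 9.33 RPKM in any other deletion. The alpha-L-arabinofuranosidases PDE_06067 and PDE_06665, which trim side chains of xylan and pectin, had 18.7 and 7.03 RPKM in the flbC deletion against 123 and 41.5 RPKM in wild type. Among the pectinases the polygalacturonase PDE_07938 had 97.6 RPKM in the flbC deletion against 9.05 in wild type and at most 17.7 elsewhere. The pectate lyase PDE_06068 had 5.06 RPKM in the flbC deletion against 55.6 in wild type, and the rhamnogalacturonyl hydrolase PDE_01286 4.28 against 16.0 in wild type. Some of these values rest on few reads, as for Cel61A with 2 reads in the flbC deletion and 50 in wild type.

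The named regulators of these enzymes, chosen after their values were seen, differed by less than 2-fold. The carbon catabolite repressor CreA (PDE_03168) had 283 RPKM in the flbC deletion against 322 in wild type. The activators ClrB (PDE_05999) and XlnR (PDE_07674) had 59.4 and 29.5 RPKM in the flbC deletion against 48.4 and 36.9 RPKM in wild type. AceA (PDE_01988), a zinc finger factor, had 319 RPKM in the flbC deletion against 219.6 in wild type, 1.45-fold (95% counting interval 1.38 to 1.53). Over all 201 kept genes with an annotated DNA-binding transcription factor activity, 21 were higher and 12 lower, 10.4% and 5.97%, both below the shares over all genes. The members farthest from the median were unnamed. PDE_01536 had 119.6 RPKM in the flbC deletion against 8.25 in wild type. PDE_06635 had 29.9 against 466 in wild type, and PDE_09243, which lies in the pigment run, 6.40 against 91.5 in wild type. A gene named only zinc finger protein, PDE_07902, chosen after seeing its values, had 358 RPKM in the flbC deletion and 65.8 in wild type, while the other deletions lay between 164 and 3129.9 RPKM, with a median of 1965.

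Peptidases and lipases held single genes with very large differences in both directions. Of 53 peptidases 7 were higher and 5 lower, 13.2% and 9.43% against 14.6% and 8.85% of all genes, with a median of 0.13. The aspergillopepsins, secreted acid proteases, went both ways. PDE_07927 had 21.9 RPKM in the flbC deletion against 1047 in wild type, 47.9-fold (95% counting interval 39.8 to 58.1), and PDE_07344 had 138 RPKM against 7.84 in wild type, 17.6-fold (95% counting interval 13.1 to 24.0). Carboxypeptidase D (PDE_00963) had 6.15 RPKM in the flbC deletion against 146 in wild type. Of 29 lipases and cutinases 3 were higher and 5 lower, 10.3% and 17.2%. The cutinase PDE_07475, an esterase that opens the waxy plant cuticle, had 15.9 RPKM in the flbC deletion against 2316 in wild type, 146-fold (95% counting interval 109 to 199). The lipase PDE_06813 had 97.9 RPKM in the flbC deletion against 1.77 in wild type, 55.2-fold (95% counting interval 27.7 to 129), and the lipase PDE_04497 12.2 against 54.4 in wild type.

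Genes named for secondary metabolism lay in several runs of neighbouring genes that were lower. Of the 8 genes found by a name search for backbone enzymes 3 were lower, 37.5% against 8.85% of all genes, and 0 higher, with a median of -0.81. The 3 were the polyketide synthases PDE_09237 and PDE_09491 given above and PDE_01066, a cyclic dipeptide prenyltransferase by name, which adds a prenyl group to a dipeptide. PDE_01066 had 17.1 RPKM in the flbC deletion against 688 in wild type, 40.1-fold (95% counting interval 32.7 to 49.8). It lies in a run of 9 genes, PDE_01063 to PDE_01071, that were all lower. The run also holds genes named fumitremorgin C monooxygenase (PDE_01064, 6.57 RPKM in the flbC deletion against 68.9 in wild type) and brevianamide F synthase (PDE_01071, 3.62 against 23.2 in wild type). The name search did not pick up PDE_01071, so the count of 3 lower backbone enzymes leaves it out. These names belong to the fumitremorgin pathway of Aspergillus fumigatus. A gene named for a later product of that pathway, verruculogen synthase (PDE_10009), lies in a second run, PDE_10003 to PDE_10010. All 8 genes of this run were lower than in wild type. However, 7 of the 8 were at least 2-fold above the median of the other 8 deletions, where 16.5% of all genes were. In 6 of the 8 the flbC deletion was above every other deletion library. PDE_10009 had 78.9 RPKM in the flbC deletion against 199 in wild type, 2.52-fold (95% counting interval 2.21 to 2.88).

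The longest run of lower genes was PDE_00792 to PDE_00809, 18 unnamed genes with medians of 2.35 RPKM in the flbC deletion and 68.4 RPKM in wild type. In the other deletions the highest value of any of the 18 was 9.99 RPKM, so wild type stood apart from every deletion library for this run. A cytochrome P450 gene just beyond it, PDE_00811, had 0.750 RPKM in the flbC deletion against 74.0 in wild type, 98.7-fold (95% counting interval 42.0 to 305). A pair of shorter runs of 5 genes, PDE_00007 to PDE_00011 and PDE_08153 to PDE_08157, were lower as well. The first of them holds a 3-dehydroquinate synthase (PDE_00008) at 63.7 RPKM in the flbC deletion against 473 in wild type. In all, 17 runs of at least 5 consecutive locus numbers were apart in 1 direction, 7 lower with 59 genes and 10 higher with 54 genes.

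The higher runs were shorter, with at most 7 genes. In PDE_02510 to PDE_02514 medians were 50.3 RPKM in the flbC deletion and 4.44 RPKM in wild type. Its first gene is named p38 MAP kinase, a stress-activated protein kinase, and had 50.3 RPKM in the flbC deletion against 4.72 in wild type. In PDE_06698 to PDE_06702 medians were 29.5 RPKM in the flbC deletion and 2.48 RPKM in wild type. Its genes PDE_06698 and PDE_06701 are both named HMG box factors, DNA-binding proteins, at 101 and 34.0 RPKM in the flbC deletion against 8.42 and 2.48 RPKM in wild type. The run PDE_09791 to PDE_09795 holds the unnamed PDE_09794, chosen after its values were seen, at 331 RPKM in the flbC deletion against 0.423 in wild type. The wild type value rests on 1 read, so its fold of 784 has an interval of 140.2 to 30993. The other higher runs were PDE_00957 to PDE_00962, PDE_01680 to PDE_01685, PDE_02466 to PDE_02470, PDE_05355 to PDE_05359, PDE_05777 to PDE_05781 and PDE_08875 to PDE_08879.

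A run of genes for the breakdown of tyrosine was higher in the flbC deletion. The longest higher run, PDE_08904 to PDE_08910, holds 4 enzymes of tyrosine breakdown. They act in sequence to turn 4-hydroxyphenylpyruvate, which is formed from tyrosine, into fumarate and acetoacetate. They were chosen after their values were seen. 4-hydroxyphenylpyruvate dioxygenase (PDE_08904), which makes homogentisate, had 2781 RPKM in the flbC deletion against 278 in wild type, 9.99-fold (95% counting interval 9.50 to 10.5). Homogentisate 1,2-dioxygenase (PDE_08906), which opens the aromatic ring, had 593 RPKM in the flbC deletion against 83.8 in wild type, 7.08-fold (95% counting interval 6.48 to 7.74). Maleylacetoacetate isomerase (PDE_08908) had 225 RPKM in the flbC deletion against 30.8 in wild type, and fumarylacetoacetase (PDE_08907), the last enzyme, 648 against 94.1 in wild type. The folds of the 4 genes lay between 6.88 and 9.99. In the other deletions the highest values were 853, 304, 108 and 255 RPKM for the 4 genes in the same order, so the flbC deletion was above every other library for each. The last gene of the run, PDE_08910, is named for a mitochondrial import subunit. It had 453 RPKM in the flbC deletion against 85.6 in wild type and lay within the range of the other deletions.

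Genes for the breakdown of other aromatic compounds were past 2-fold in both directions, more of them higher. In the whole list of aromatic breakdown genes, which was added after values were seen, 13 of 28 kept genes were higher and 5 lower, 46.4% and 17.9% against 14.6% and 8.85% of all genes, with a median of 0.52. Indoleamine 2,3-dioxygenase (PDE_05907), which opens the ring of tryptophan, had 2626 RPKM in the flbC deletion against 163 in wild type, 16.1-fold (95% counting interval 15.2 to 17.1). Kynureninase (PDE_02455), a later enzyme of that path chosen after seeing its values, had 362 RPKM in the flbC deletion against 82.7 in wild type, 4.37-fold (95% counting interval 3.99 to 4.79). The salicylate hydroxylase PDE_07956 had 762 RPKM in the flbC deletion against 22.7 in wild type, 33.6-fold (95% counting interval 28.7 to 39.7). Catechol is the product of salicylate hydroxylase, and the catechol 1,2-dioxygenase PDE_05239, chosen in the same way, had 745 RPKM in the flbC deletion against 59.2 in wild type. The 2,3-dihydroxybenzoate decarboxylase PDE_02215, which also yields catechol, had 954 RPKM in the flbC deletion against 42.6 in wild type, 22.4-fold (95% counting interval 19.6 to 25.8). A gene of the opposite, synthetic direction was the lowest of all with a name. Salicylate synthetase (PDE_03182) had 2.03 RPKM in the flbC deletion against 866 in wild type, 426-fold (95% counting interval 244 to 825). Its values in the other deletions lay between 0.242 and 255 RPKM, with a median of 17.6. The 5 lower members of the list were 4 further salicylate hydroxylase genes and a second 4-hydroxyphenylpyruvate dioxygenase gene, so the shared name covers genes of both directions.

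Uptake and use of nitrogen compounds had 39.4% higher genes, 13 of 33, and 6.06% lower, 2 of 33, against 14.6% and 8.85% of all genes. Against the median of the other 8 deletions 6 of the 33 were higher and 3 lower, and the median difference of 0.03 was below the 0.35 of all genes. The amino acid transporter PDE_00830 had 198 RPKM in the flbC deletion against 1.52 in wild type, 130.2-fold (95% counting interval 75.9 to 245). Urate oxidase (PDE_03841), a step in the use of purines as nitrogen source, had 902 RPKM in the flbC deletion against 41.4 in wild type, 21.8-fold (95% counting interval 18.8 to 25.3). Further steps of that path, chosen after their values were seen, were higher as well. Allantoinase (PDE_04944) had 64.0 RPKM in the flbC deletion against 9.01 in wild type, and urease (PDE_02913) 37.9 against 9.98 in wild type. For urate oxidase and allantoinase the flbC deletion lay within the range of the other deletions, whose medians were 801 and 81.4 RPKM. The peptide transporter PDE_06899 differed in the other direction, at 3.15 RPKM in the flbC deletion against 657 in wild type, 209-fold (95% counting interval 142 to 319). An amino acid transporter chosen after its values were seen, PDE_04432, was also lower, at 63.5 RPKM in the flbC deletion against 636 in wild type.

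Central carbon metabolism was split. Of 28 genes of the TCA, glyoxylate and methylcitrate cycles and gluconeogenesis 7 were higher and 4 lower, 25.0% and 14.3% against 14.6% and 8.85% of all genes. Methylisocitrate lyase (PDE_06062), which closes the methylcitrate cycle that disposes of propionyl-CoA, had 27.8 RPKM in the flbC deletion against 5601 in wild type, 202-fold (95% counting interval 169 to 243). It was lower in the flbC deletion than in any other library, the other deletions starting at 34.2 RPKM. An acetyl-CoA synthetase, PDE_01716, had 0.779 RPKM in the flbC deletion against 22.2 in wild type. The NADP-dependent malic enzyme PDE_04142 had 606 RPKM in the flbC deletion against 57.6 in wild type, 10.5-fold (95% counting interval 9.63 to 11.5). Key enzymes of gluconeogenesis, chosen after their values were seen, were higher than in wild type. Phosphoenolpyruvate carboxykinase (PDE_08878) had 1923 RPKM in the flbC deletion against 332 in wild type, 5.79-fold (95% counting interval 5.57 to 6.02). Fructose-1,6-bisphosphatase (PDE_08481) had 210.4 RPKM in the flbC deletion against 26.2 in wild type, 8.02-fold (95% counting interval 6.73 to 9.63). Both were below the median of the other deletions, 3405 and 600.3 RPKM. Pyruvate carboxylase (PDE_05651), which also feeds gluconeogenesis and was chosen in the same way, was lower, at 106 RPKM in the flbC deletion against 451 in wild type.

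In glycolysis and fermentation 4 of 33 genes were higher and 5 lower, 12.1% and 15.2% against 14.6% and 8.85% of all genes. Pyruvate decarboxylase (PDE_04873), the first step of alcoholic fermentation, had 208 RPKM in the flbC deletion against 32.5 in wild type. A hexokinase, PDE_03526, had 8.46 against 31.5 RPKM in wild type, and the alcohol dehydrogenase PDE_06020 8.67 against 38.3 in wild type. Of 13 sugar transporters 5 were higher and 1 lower, 38.5% and 7.69%. PDE_00197, a sugar symporter, had 19.4 RPKM in the flbC deletion against 2.58 in wild type, but between 4.47 and 818 RPKM, with a median of 266 in the other deletions. The alpha-glucoside symporters PDE_07416 and PDE_06184 went opposite ways, with 19.4 and 1.81 RPKM in the flbC deletion against 5.30 and 13.4 RPKM in wild type.

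Ribosome biogenesis was the large group with the most uniform difference. It holds the nucleolar factors that cut, modify and assemble ribosomal RNA. Of its 96 genes 40 were at least 2-fold higher and 1 lower, 41.7% and 1.04%, against 14.6% and 8.85% of all genes. The median difference was 0.91, and 88 of the 96 lay above the median of all genes. Under median-of-ratios scaling 33 were higher, against 12.6% of all genes. U3 small nucleolar RNA-associated protein 4 (PDE_05361) had 80.3 RPKM in the flbC deletion against 16.6 in wild type, 4.84-fold (95% counting interval 4.20 to 5.59). UTP30 (PDE_09221) had 72.9 RPKM in the flbC deletion against 20.6 in wild type. The single lower member, PDE_00589, is named cell growth-regulating nucleolar protein and had 58.4 RPKM in the flbC deletion against 277 in wild type. Against the median of the other 8 deletions only 3 of the 96 were at least 2-fold higher, where 16.5% of all genes were, and the group's median difference of 0.21 was below the 0.35 of all genes. The difference in this group was thus one from wild type.

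Few of the ribosomal proteins themselves were past 2-fold. Of 106 cytosolic ribosomal protein genes 2 were higher and 1 lower, 1.89% and 0.943% against 14.6% and 8.85% of all genes, with a median of 0.23. L24e (PDE_05375) had 228 RPKM in the flbC deletion against 60.4 in wild type. S6 (PDE_00734) had 81.8 and S10e (PDE_08216) 223 RPKM in the flbC deletion against 39.3 and 622 RPKM in wild type. Of 15 mitochondrial ribosomal proteins 1 was higher and 0 lower, and of 98 translation factors and tRNA synthetases 2 were higher and 4 lower. One of these 4 was a second gene named elongation factor 1-alpha, PDE_09012, at 48.4 RPKM in the flbC deletion against 967 in wild type, 20.0-fold (95% counting interval 17.8 to 22.6).

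Among genes of protein folding and stress defence those past 2-fold were all higher, but most were within 2-fold of wild type. Of 37 heat shock proteins and chaperones 14 were higher and 0 lower, 37.8% against 14.6% of all genes, with a median of 0.58. HSP20 proteins bind other proteins as they unfold. Besides PDE_09235 above, PDE_00322 had 536 RPKM in the flbC deletion against 28.8 in wild type, 18.6-fold (95% counting interval 15.9 to 21.9). ClpB (PDE_00624), a disaggregase, had 194 RPKM in the flbC deletion against 18.5 in wild type, 10.5-fold (95% counting interval 9.13 to 12.1). An HSP70 gene, PDE_02379, and the mitochondrial co-chaperones GrpE (PDE_08711) and GroES (PDE_08020) were chosen after their values were seen. They had 1245, 164 and 576 RPKM in the flbC deletion against 392, 33.9 and 218 RPKM in wild type. The other deletions were higher still for several of these, with medians of 2161 RPKM for ClpB and 6767 RPKM for HSP70. Against those medians 10 of the 37 genes were at least 2-fold lower in the flbC deletion, where 5.89% of all genes were, and 3 higher.

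Of 39 genes of oxidative stress defence 11 were higher, 28.2% against 14.6% of all genes, and 0 lower, with a median of 0.60. Glutathione S-transferases, which couple glutathione to reactive compounds, led this list. PDE_01194 had 659 RPKM in the flbC deletion against 3.69 in wild type, 179-fold (95% counting interval 104 to 336), and at most 457 in the other deletions. PDE_05029 had 509 RPKM in the flbC deletion against 90.5 in wild type, and PDE_05020 82.5 against 19.2 in wild type. Thioredoxin reductase (PDE_08354), chosen after seeing its values, had 101 RPKM in the flbC deletion against 31.5 in wild type. Nitric oxide dioxygenase (PDE_01345), a flavohaemoglobin that turns nitric oxide into nitrate, had 1251 RPKM in the flbC deletion against 15.4 in wild type, 81.4-fold (95% counting interval 66.8 to 100.2). In the other deletions it lay between 300.3 and 8676 RPKM, with a median of 2023, so wild type was the lowest of the 10 libraries.

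Ergosterol is the main membrane sterol of fungi, and 9 of 27 genes of its synthesis were higher and 2 lower, 33.3% and 7.41% against 14.6% and 8.85% of all genes. Methylsterol monooxygenase (PDE_05808) had 665 RPKM in the flbC deletion against 72.8 in wild type, 9.14-fold (95% counting interval 8.06 to 10.4). Lathosterol oxidase (PDE_01023) had 198 RPKM in the flbC deletion against 39.6 in wild type, 5.01-fold (95% counting interval 4.31 to 5.83). C-8 sterol isomerase (PDE_02884) had 150.3 RPKM in the flbC deletion, 37.7 in wild type and at most 34.8 RPKM in the other deletions. Squalene monooxygenase (PDE_09649), chosen after seeing its values, had 94.1 RPKM in the flbC deletion against 31.3 in wild type. The genes on the lower side bear names that paralogues share. Farnesyl diphosphate synthase PDE_01718 had 8.75 RPKM in the flbC deletion against 80.7 in wild type, and PDE_09230, named sterol 14-demethylase, lies in the pigment run described above.

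Few genes of respiration were past 2-fold. Of 69 genes of the respiratory chain and ATP synthase 4 were higher, 5.80% against 14.6% of all genes, and 0 lower, with a median of 0.43. Cytochrome c (PDE_08701) had 1679 RPKM in the flbC deletion against 357 in wild type, 4.71-fold (95% counting interval 4.31 to 5.14). The cytochrome oxidase assembly factor PDE_01659 had 114 RPKM and the succinate dehydrogenase subunit PDE_09828 173 RPKM in the flbC deletion, against 26.1 and 49.9 RPKM in wild type. Of 36 genes of fatty acid oxidation and the peroxisome 6 were higher, 16.7% and so near the share over all genes, and 1 was lower, 2.78% against 8.85%. Acyl-CoA oxidase PDE_02167 had 62.3 RPKM in the flbC deletion against 12.3 in wild type, 5.08-fold (95% counting interval 4.19 to 6.18).

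Several housekeeping groups stayed close to wild type. Of 62 genes of DNA replication and the cell cycle 1 was higher and 1 lower. Of 41 proteasome genes 0 were higher and 1 lower, of 46 genes of the secretory pathway 1 was higher and 2 lower, and of 35 genes of G-protein, kinase and Ras signalling 2 were higher and 0 lower. For each of these lists both shares were below the 14.6% higher and 8.85% lower of all genes. The medians lay between -0.02 and 0.16, against 0.12 over all genes. Against the median of the other 8 deletions, however, 17 of the 62 genes of DNA replication and the cell cycle were at least 2-fold higher and 0 lower. By that measure 16.5% of all genes were higher, and the median of this list was 0.73 against 0.35 over all genes. Of 8 histone genes 1 was higher, histone H4 (PDE_00232) at 2591 RPKM in the flbC deletion against 1252 in wild type. Of 23 metal ion transporters 2 were higher and 1 lower. Over the 33 lists with at least 5 kept genes, 18 had a median above that of all genes.

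**Figure D3:**
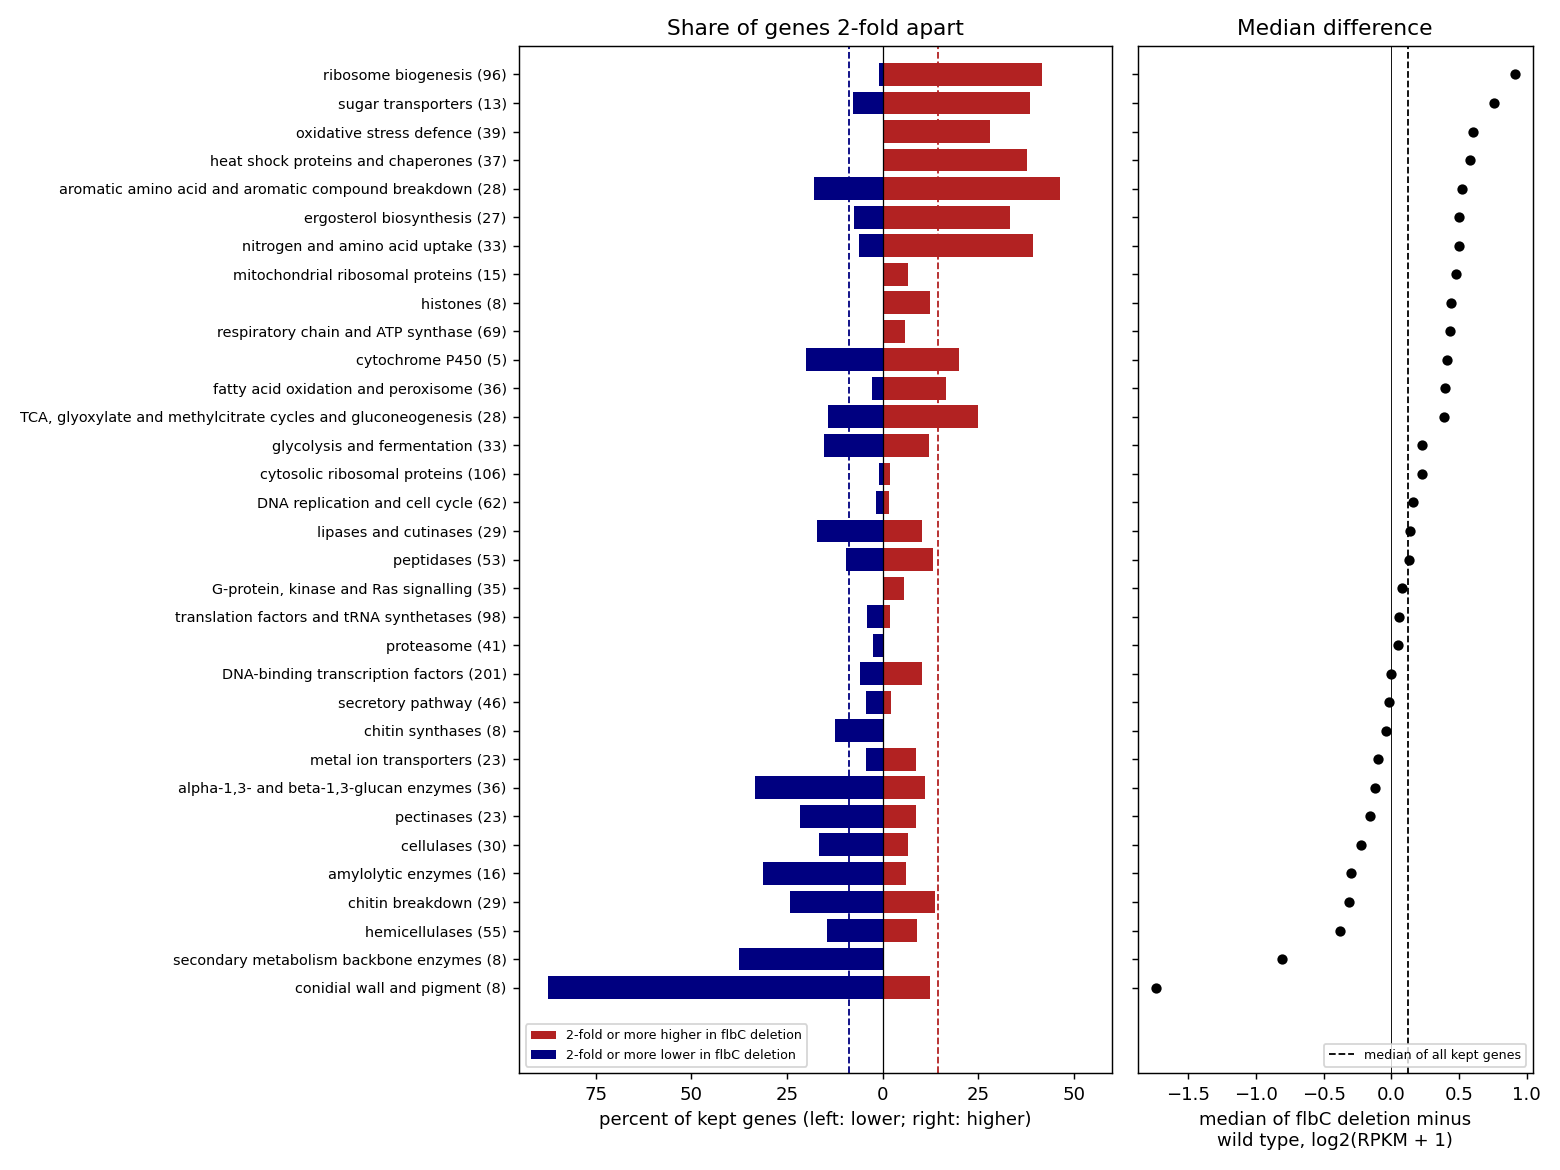
Left, percent of the kept genes of each list that were at least 2-fold higher (red, to the right) or lower (blue, to the left) in the flbC deletion than in wild type, with the number of genes in brackets and dashed lines at the shares over all genes, 14.6% and 8.85%. Right, the median difference of each list, with a dashed line at the 0.12 of all genes. Ribosome biogenesis lies highest (median 0.91). The conidial wall and pigment list, all named for pigment enzymes, lies lowest (median -1.74).

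The remaining named genes with the largest differences belong to none of these themes. Formate dehydrogenase (PDE_01080), which oxidises formate to carbon dioxide, had 4494 RPKM in the flbC deletion against 97.0 in wild type, 46.3-fold (95% counting interval 42.8 to 50.3). A gene named norsolorinic acid ketoreductase (PDE_04277) had 335 RPKM in the flbC deletion against 3.53 in wild type, 95.1-fold (95% counting interval 56.5 to 175). The other deletions had medians of 234 and 375 RPKM for these genes. Acid phosphatase PDE_08846 had 67.8 RPKM in the flbC deletion against 0.690 in wild type, 98.3-fold (95% counting interval 41.8 to 304), and its neighbour sulfite oxidase (PDE_08847) 305 against 13.1 in wild type, 23.2-fold (95% counting interval 19.2 to 28.2). On the lower side, a gene for a catalytic subunit of the protein phosphatase PP1 (PDE_03897) had 5.39 RPKM in the flbC deletion against 171 in wild type, 31.7-fold (95% counting interval 22.3 to 46.6).

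**Figure D4:**
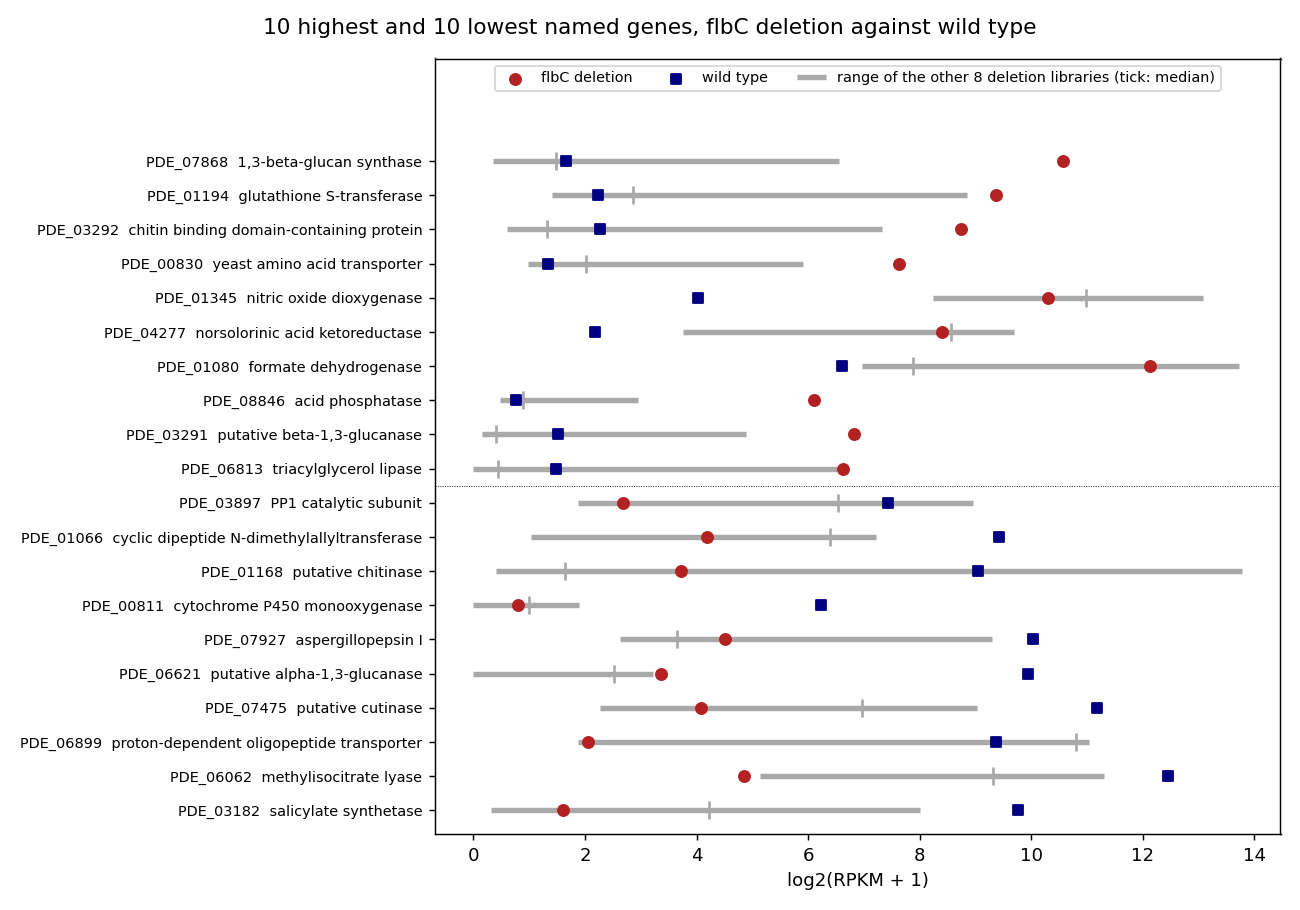
Levels as log2(RPKM + 1) of the 10 highest and 10 lowest named genes by the difference between the flbC deletion (red circles) and wild type (blue squares), with the range (grey bar) and median (tick) over the other 8 deletion libraries. PDE_07868 and PDE_08846 lie above all other libraries in the flbC deletion, whereas PDE_06621 and PDE_00811 are high in wild type only.

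Set against every library in turn, the flbC deletion was nearest to the swi6 deletion, from which 1870 genes (20.5%) were at least 2-fold apart, and to the flbD deletion with 1950 (21.3%). Wild type followed at 2145 genes and the abaA deletion at 2256. The flbA deletion was farthest, with 4416 genes (48.3%). These distances depend on the scaling. Under median-of-ratios scaling the flbA deletion was still farthest but with 3508 genes, and the swi6 and flbD deletions still nearest with 1710 and 1845. Pearson's r across genes was 0.886 with the swi6, 0.865 with the flbD and 0.818 with the wild type library, a description over 9134 genes that are not independent. Genotypes are not replicates of each other, and part of each distance is counting error, which differs with depth.

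Genes that stand apart are those at least 2-fold above or below all 9 other libraries. The flbC deletion was above all others for 133 genes (1.46%) and below all others for 10 (0.109%). These counts depend on the scaling and the distance: they were 80 and 21 under median-of-ratios scaling, and 37 and 0 at a distance of 2 on the log2 scale. Among the deletions only the flbA, stuA and swi6 libraries had more genes above all others, with 191, 160 and 172, and the flbB, flbD, flbE, wetA and abaA libraries had between 2 and 18. Names were available for 31 of the 133 genes, against 3443 of all 9134. Of the 31 genes 6 belong to aromatic breakdown, a list of 28 kept genes that was added after values were seen. Some of these 6 are neighbours in the run PDE_08904 to PDE_08910. PDE_07868, the acid phosphatase and sulfite oxidase neighbours, the small heat shock protein PDE_09235, the xylanase PDE_00752, the polygalacturonase PDE_07938 and C-8 sterol isomerase are among the 8 named genes that stood farthest out, while several unnamed genes stood farther out than most of them. The other of the 8 was the salicylate hydroxylase PDE_03621, at 38.5 RPKM in the flbC deletion, 7.21 in wild type and at most 1.48 RPKM in the other deletions. PDE_09225, unnamed, close to the pigment runs and chosen after seeing its values, had 140.4 RPKM in the flbC deletion against 2.49 in wild type and at most 55.9 in the other deletions.

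The 10 genes below all others include PDE_04618 described above and ribonuclease T2 (PDE_00092), a secreted RNase, at 49.9 RPKM in the flbC deletion, 248 in wild type and 118 or more in the other deletions. The other 8 have no name, and those given here were chosen after their values were seen. PDE_00503 had 8.49 RPKM in the flbC deletion against 381 in wild type, 44.8-fold (95% counting interval 28.2 to 76.0), and lay between 36.3 and 333 RPKM, with a median of 143 in the other deletions. PDE_09959 had 5.43 RPKM in the flbC deletion against 1136 in wild type, 209-fold (95% counting interval 129 to 366), and lay between 19.4 and 82.9 RPKM, with a median of 57.1 in the other deletions. PDE_08372, annotated only as binding a metal ion, had 19.0 RPKM in the flbC deletion against 203 in wild type, 10.7-fold (95% counting interval 8.60 to 13.4), and 58.0 RPKM or more in the other deletions. Its 88 reads in the flbC deletion covered 98.3% of the 1044 bases of coding length. PDE_05163 and PDE_04512 had 31.0 and 12.9 RPKM in the flbC deletion against 213 and 92.3 RPKM in wild type. PDE_08262 had 10.8 RPKM in the flbC deletion and 39.9 in wild type. The last of the 10, PDE_04215 and PDE_05018, had 0 reads each in the flbC deletion but only 9 and 6 reads in wild type.

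**Figure D5:**
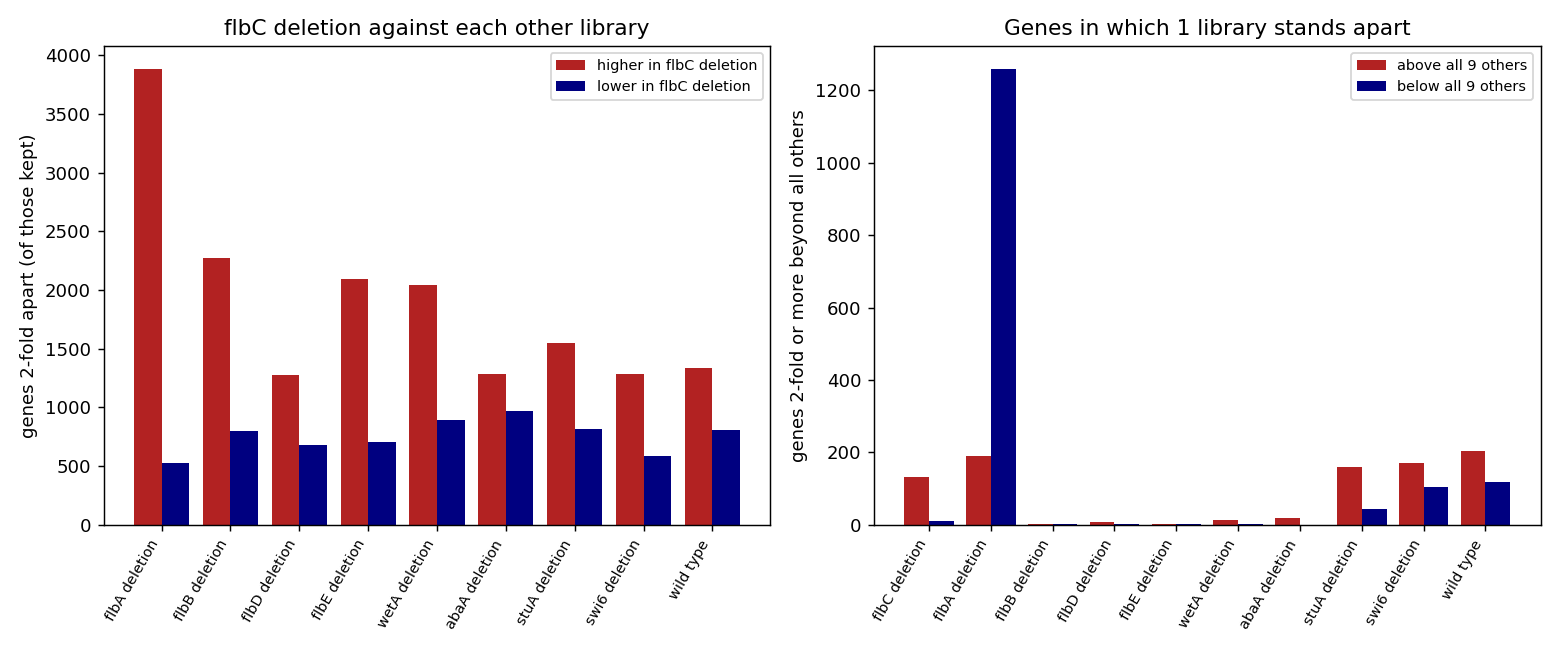
Left, number of genes at least 2-fold higher (red) or lower (blue) in the flbC deletion than in each other library, of 9134 kept genes. Right, number of genes for which each library is at least 2-fold above (red) or below (blue) all 9 others; with the libraries scaled by read totals, the flbC deletion has 133 and 10 (80 and 21 under median-of-ratios scaling), and the flbA deletion 191 and 1260.

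Against the median of the other 8 deletion libraries 1506 genes (16.5%) were at least 2-fold higher in the flbC deletion and 538 (5.89%) lower, with a median difference over all genes of 0.35. This split depended on the scaling: with median-of-ratios scaling the median was 0.00 and 917 genes were higher and 882 (9.66%) lower, so the share of called genes that were higher was 73.7% in the first scaling and 51.0% in the second. The 5 named genes highest by this measure were PDE_07868, PDE_03292, PDE_09235 and PDE_09236, given above, and the lactate transporter PDE_09261. PDE_09261 had 392 RPKM in the flbC deletion against a median of 1.06 in the other deletions, and 38.2 RPKM in wild type. The 5 lowest were the peptide transporter PDE_06899, the sodium-exporting ATPase PDE_03497, the alpha-1,6-mannanase PDE_00051, the chitinase PDE_01573 and the aminopeptidase PDE_02146. The sodium pump PDE_03497 had 1.796 RPKM in the flbC deletion against a median of 771 in the other deletions, but 6.44 RPKM in wild type, so this gene was low in wild type as well. PDE_06899 had 3.15 RPKM in the flbC deletion, 2.69 RPKM in the swi6 deletion and a median of 1787 over the other 8. PDE_00051 had 2.58 RPKM in the flbC deletion against a median of 109 in the other deletions and 18.4 RPKM in wild type. It was low in the flbA, stuA and swi6 deletions as well, at 2.22, 3.23 and 1.77 RPKM. PDE_02146 had 11.9 RPKM in the flbC deletion against a median of 361 in the other deletions. PDE_01573 had 6.45 RPKM in the flbC deletion against a median of 257 in the other deletions and 11.0 RPKM in wild type.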

How the data were processed

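Total RNA of filtered mycelia was prepared with RNAiso, per the labels' protocols, and CASAVA 1.8 was used on the sequencer output, per the submitters' processing notes. Not given in the sources used here are the aligner, the genome build and the annotation version. The authors deposited, per the file headers, a count per gene of reads placed uniquely, the RPKM and the percent of each gene covered by reads. Recomputed RPKM differed from the deposited values by a relative gap of at most 2.57e-08, and 9856 of 9859 lengths are multiples of 3, so they are coding lengths. Uniquely placed reads undercount genes with close copies, and whether counting used strand is not stated.

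A dash was read as 0 reads. Genes with a mean RPKM under 1 over the 10 libraries (725) were left out. Differences used a pseudocount of 1 RPKM, which shrinks those of weak genes. Fold intervals are exact conditional (Clopper-Pearson) 95% intervals of the read counts. Reads carry no molecular identifiers, so intervals cover counting error only. Named genes were the 10 highest and 10 lowest with an informative name and 10 RPKM or more in the higher library, up to 3 members of each list described beyond its counts, those farthest from the median, the named conidiation and pigment genes, the 8 on each side that stood farthest apart, the 5 with the most reads, the runs, and the 5 on each side against the other deletions. The 34 gene lists are text patterns searched in the annotation. Members, lists and rules were chosen with earlier results of these data known. The RefSeq gene table at hand is of another strain and 0 of the IDs matched, so no coordinates are given. Alternatives were pseudocounts of 0.1 and 5, other filters, median-of-ratios scaling, totals without the 10 genes with the most reads, and stricter folds. Analyses used Python 3.11.15, numpy 2.4.6, pandas 2.3.3, scipy 1.17.1 and matplotlib 3.10.9, and the calculation of folds and intervals was tested on simulated data.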

Additional observations from a re-analysis of the deposited data

How the results depend on the processing

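With 1 library on each side, a culture or clone effect cannot be told apart from the deletion. No paired analysis was possible because each genotype has 1 library. With a threshold of 4-fold, 433 genes were higher and 277 lower than in wild type, and where the counting interval had to lie beyond 2-fold, 858 were higher and 508 lower. Against the other deletions median-of-ratios scaling gave 917 higher and 882 lower genes. Genes above all 9 other libraries numbered 37 at a distance of 2 on the log2 scale and 80 under median-of-ratios scaling, and those below all others 0 and 21. Other pseudocounts, filters and totals kept the counts against wild type within 1.5 times, from 979 to 1488 higher and from 576 to 919 lower. All 182 named genes kept their direction under median-of-ratios scaling and with a pseudocount of 0.1. This check could hardly have failed. A pseudocount cannot reverse a direction, and the scaling moved the median difference over all genes only from 0.12 to 0.02. Of 33 lists 15 to 18 had a median above that of all genes under each alternative, and peptidases, cytochrome P450 and lipases and cutinases changed side. The cytochrome P450 list holds 5 kept genes.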
